A study of Mus musculus with 36 samples.

Results

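Intermediately methylated tiles are stretches of the genome where a cytosine at a CpG was neither nearly always methylated nor nearly always free of methylation. They were chosen here as autosomal tiles of 1000 bases with 5 or more CpGs covered 5 or more times in each of the 4 wild-type (WT) libraries of the 3 ppm diet. In addition, the methylation level pooled over those CpGs and libraries had to lie from 30% to below 70%. The tiles were thus selected on the measured levels of the WT 3 ppm embryos, and 5906 met the rule among 63512 tiles with enough covered CpGs (9.30%). Of the other tiles, 24768 were below 10% (unmethylated), 2495 were from 10% to below 30% (lowly methylated) and 30343 were at 70% or above (methylated). Just inside the lower bound lay a tile at Rcan2 (30.0%) and just outside it a tile at Spo11 (29.991%). Just inside the upper bound lay a tile at Ank2 (69.984%) and just outside it a tile nearest to CT573017.1 (70.0%).

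In a single DNA molecule a CpG is either methylated or not, so a level between these extremes is an average over molecules. It arises where the alleles inherited from the mother and from the father differ, as at imprinted genes, where cells of a tissue differ, or where methylation is added and removed continually. TET1 is a dioxygenase that oxidises 5-methylcytosine and so opens the way to its removal, and folate feeds the one-carbon cycle that supplies methyl groups to the DNA methyltransferases.

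The brains of single mouse embryos at E11.5, taken from forebrain to hindbrain, were profiled by oxidative bisulfite sequencing of a reduced genome cut with MspI and TaqI. In this chemistry 5-hydroxymethylcytosine reads as unmodified, so a level is that of 5-methylcytosine. The embryos came from crosses of heterozygous parents of the 129S6.Cg Tet1tm1Koh strain, and were WT, heterozygous (HET) or homozygous (KO) for an insertion at the first coding start of Tet1. The dams received a diet with 30, 3 or 0.1 ppm folic acid from 4 weeks before mating, and every diet, the 3 ppm control included, held succinylsulfathiazole, which suppresses folate made by gut bacteria. On 30, 3 and 0.1 ppm the series holds 3, 4 and 2 WT, 5, 3 and 3 HET, and 6, 5 and 5 KO embryos. The titles also give a phenotype, with 9 of 16 KO embryos labelled NTD (neural tube defect) or inHB, a term they do not spell out, against 2 of 10 HET embryos used and 1 of 9 WT embryos, WT 0.1 ppm replicate 2. The study's own sample list gives brain malformation for the embryos labelled inHB. The allele removes the full-length transcript, but a shorter isoform with a later start may remain, and the DNA around Tet1 in KO embryos derives from the strain in which the allele was made, so 38 tested tiles within 10 Mb of Tet1 were left out when tiles were ranked for their gain, loss or spread. Counts over all intermediate tiles and over gene lists include them. HET 0.1 ppm replicate 2, which the study left out, was not used, leaving 35 embryos. A whole brain holds many cell types, and a change of cell make-up and a change within cells cannot be told apart in these data.

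The 36 libraries held 23190717 to 197322320 CpG calls at a mean coverage of 10.9 to 61.5 reads. A CpG in Tet1 (chr10:62884019, mm10) had levels of 0 to 7.32% in 7 WT, 8.33% to 69.2% in 11 HET and 69.6% to 100% in 15 KO libraries. These ranges leave out 3 libraries and nearly touch. They rest on single libraries with 8 (WT 30 ppm replicate 3) to 103 reads (WT 3 ppm replicate 1) at this CpG. The other 3 libraries lay outside the ranges of their labels there. The library labelled KO 30 ppm replicate 1 had 45% (20 reads). That labelled WT 30 ppm replicate 2 had 36.36% (33 reads) and that labelled WT 0.1 ppm replicate 2 had 40.0% (15 reads). The study's own sample list names the first of these embryos HET, while its GEO label gives KO, and names the other 2 WT, as GEO does. All 3 were kept under their GEO labels. The 5 WT embryos on 30 and 0.1 ppm therefore include both WT libraries in doubt, and the main counts and shares are given with and without the 3.

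Sequences of windows in 5 of the tiles show what such a tile looks like and carry the contrasts described below. They were read from GRCm38.p6 (mm10), plus strand, and capitals mark the CpGs covered in all 35 embryos. The first and second lie in tiles that gained methylation in KO, the third in the tile with the largest loss, and the last 2 in tiles whose level varied little between embryos.
Nfix intron, chr8:84736115-84736200: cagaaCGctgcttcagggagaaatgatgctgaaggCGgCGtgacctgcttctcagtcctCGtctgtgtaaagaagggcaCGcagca
Intergenic, nearest start Ercc4, chr16:13061516-13061643: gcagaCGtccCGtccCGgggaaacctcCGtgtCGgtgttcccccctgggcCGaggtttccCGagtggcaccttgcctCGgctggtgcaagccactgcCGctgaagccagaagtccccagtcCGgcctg
Gm11620 pseudogene, nearest start Tlk2, chr11:105165016-105165221: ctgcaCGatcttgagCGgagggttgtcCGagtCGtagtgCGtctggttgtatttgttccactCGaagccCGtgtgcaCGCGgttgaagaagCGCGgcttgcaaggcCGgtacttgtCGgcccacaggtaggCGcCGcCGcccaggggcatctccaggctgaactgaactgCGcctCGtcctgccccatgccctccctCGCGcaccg
Gnas coding exon, chr2:174299011-174299192: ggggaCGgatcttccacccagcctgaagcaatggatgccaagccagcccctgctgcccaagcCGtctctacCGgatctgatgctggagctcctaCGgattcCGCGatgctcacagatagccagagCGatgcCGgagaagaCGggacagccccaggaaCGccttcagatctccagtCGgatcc
Lingo3 coding exon, chr10:80834628-80834837: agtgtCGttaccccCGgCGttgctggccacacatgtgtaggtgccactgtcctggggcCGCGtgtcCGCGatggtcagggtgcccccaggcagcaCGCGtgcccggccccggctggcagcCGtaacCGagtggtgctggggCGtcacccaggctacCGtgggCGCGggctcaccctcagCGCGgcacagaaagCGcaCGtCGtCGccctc
Each of the 5 CpGs of the Nfix window was higher in KO, with pooled levels of 23.5% to 44.2% in the 5 WT embryos on 30 and 0.1 ppm and 73.3% to 84.8% in the KO embryos, or 19.05% to 39.5% and 76.3% to 86.9% without the libraries in doubt. The 11 CpGs of the Gnas window lay in a narrow band, from 39.1% to 45.78% in WT and from 37.2% to 52.0% in KO. The 21 CpGs of the Lingo3 window spread from 17.3% to 81.9% in WT and from 24.4% to 88.9% in KO. A level near the middle of the scale thus stood for CpGs that were alike in one tile and for a mixture of high and low CpGs in another.

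**Figure D1:**
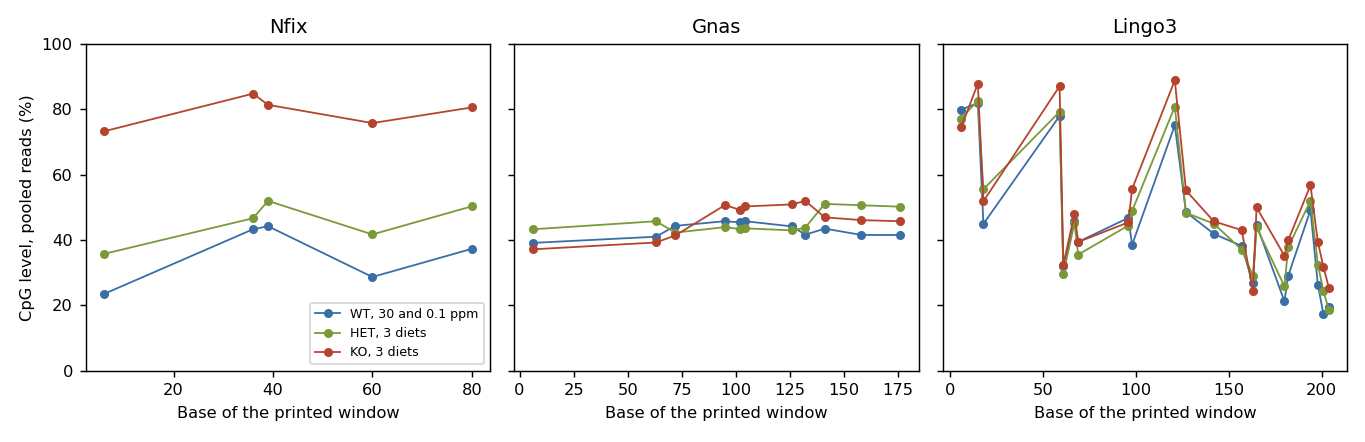
Level of each CpG (%, reads pooled over embryos, y axis) against its base in the printed window (x axis) for the Nfix, Gnas and Lingo3 windows, in WT embryos on 30 and 0.1 ppm (blue), HET embryos on 3 diets (green) and KO embryos on 3 diets (red). KO lies above WT at all 5 CpGs of Nfix, the genotypes interleave at Gnas, and at Lingo3 neighbouring CpGs differ widely while the genotypes follow the same course.

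The tiles were not evenly spread over the range. There were 1005 from 30% to 40%, 1163 from 40% to 50%, 1442 from 50% to 60% and 2296 from 60% to 70%. The median tile had 7 CpGs in the rule and 1103 reads over the 4 libraries. By chromosome, the share of measured tiles that were intermediate ran from 7.43% on chromosome 6 to 11.1% on chromosome 4.

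Intermediately methylated tiles were mostly away from CpG-dense DNA. A tile was called a promoter if it lay within 1 kb of a transcription start, and by that definition 23.3% were promoters, 19.7% held other exon sequence, 26.7% were intronic and 30.3% intergenic. Unmethylated tiles were promoters in 83.5% of cases, lowly methylated tiles in 43.9% and methylated tiles in 15.6%. The median distance to a start was 7448 bases for intermediate, 1928 for lowly methylated and 10411 for methylated tiles. Island-like tiles, with a GC content of 50% or more and a CpG observed to expected ratio of 0.6 or more, made up 1.96% of the intermediate and 52.7% of the unmethylated tiles. They made up 7.90% of lowly methylated and 1.01% of methylated tiles. A further 8.69% of intermediate tiles lay within 2 kb of such a tile (a shore), against 2.91% of methylated and 20.04% of lowly methylated tiles. Intermediate tiles held a median of 20 CpGs in the reference, as did methylated tiles. They were rarely repeat-rich, with 50% or more of their bases masked in 3.56% against 18.2% of methylated tiles. This share was lower still in lowly methylated (1.24%) and unmethylated tiles (0.375%).

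The tiles next to an intermediate tile were described where they were measured. Of 1704 tiles adjacent to an intermediate tile and measured by the same criteria, 27.3% were themselves intermediate, where 9.30% of all measured tiles were. Lowly methylated tiles made up 8.80% of these neighbours against 3.93% of all tiles. Most neighbours were not measured, so that 5454 of the 5906 tiles (92.3%) had no neighbour known to be intermediate. Of the 147 tiles with both neighbours measured, 41 (27.9%) had an unmethylated tile on one side and a methylated tile on the other. The longest run was of 5 tiles at Nespas and Gnas (chr2:174283001-174288000), an imprinted domain, and no other run reached 5.

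The CpGs within a tile were read from the 5 WT embryos on 30 and 0.1 ppm, which had no part in the choice, at CpGs with 20 or more pooled reads. In 1508 of 5902 tiles (25.6%) all CpGs lay from 20% to 80%, and in 1604 (27.2%) there was at least 1 CpG below 20% and 1 above 80%. A further 988 (16.7%) combined CpGs below 20% with CpGs in between, and 1802 (30.5%) combined CpGs above 80% with CpGs in between. The median range between the lowest and highest CpG of a tile was 54.1 points. In the KO embryos of the same diets, tiles with all CpGs in between made up 15.2%, those with CpGs in between and above 80% made up 54.04%, and those with CpGs in between and below 20% made up 4.27%. The mixed tiles made up 26.5%. Without the libraries in doubt, tiles with all CpGs in between were 26.1% in WT and 13.5% in KO, and those with CpGs in between and above 80% were 25.7% and 56.6%. With bounds of 10% and 90%, the in-between tiles of WT were 56.8% and the mixed tiles 11.8%.

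The intermediate state held in WT embryos that the rule had not used. Of the 5906 tiles, 3941 had 3 or more CpGs covered in all 35 embryos, and 3456 of these (87.7%) lay from 30% to below 70% on average over the 5 WT embryos on 30 and 0.1 ppm. Another 350 were at 70% or above and 135 below 30%. Without the WT libraries in doubt, 3443 (87.4%) stayed in range over 3 embryos, 242 were at 70% or above and 256 below 30%. In KO embryos 2185 (55.4%) were in range and 1716 (43.5%) were at 70% or above, or 2072 (52.6%) and 1834 (46.5%) without the KO library in doubt. In HET embryos the numbers were 3166 (80.3%) and 690 (17.5%).

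Averaged over the 3941 tiles, the level per embryo separated the genotypes. The 4 WT 3 ppm embryos, which chose the tiles, had 52.8% ± 0.79 (SD, n = 4), and the KO 3 ppm embryos had 67.1% ± 1.11 (n = 5), a contrast that is given as a description only. WT embryos had 54.02% ± 3.60 (n = 3) on 30 ppm and 55.0% ± 4.63 (n = 2) on 0.1 ppm. KO embryos had 64.0% ± 4.47 (n = 6) on 30 ppm and 66.9% ± 0.38 (n = 5) on 0.1 ppm. HET embryos lay between, with 56.3% ± 1.34 (n = 5), 58.3% ± 1.07 (n = 3) and 58.6% ± 0.79 (n = 2) on 30, 3 and 0.1 ppm. The library labelled KO 30 ppm replicate 1 stood at 54.84%, and the other 5 KO embryos of that diet at 65.5% or above. The libraries labelled WT 30 ppm replicate 2 and WT 0.1 ppm replicate 2 stood at 58.1% and 58.3%. Without these 3, HET embryos spanned 55.1% to 59.5% (n = 10), KO embryos 65.5% to 68.7% (n = 15) and the WT embryos that did not choose the tiles 51.2% to 52.8% (n = 3). That these ranges do not overlap is a description, since the libraries left out are those that stood apart. Among KO embryos the 7 labelled norm had 65.6% to 68.7%, the 5 labelled NTD 65.5% to 66.7% and the 3 labelled inHB that are not in doubt 66.1% to 67.2%.

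**Figure D2:**
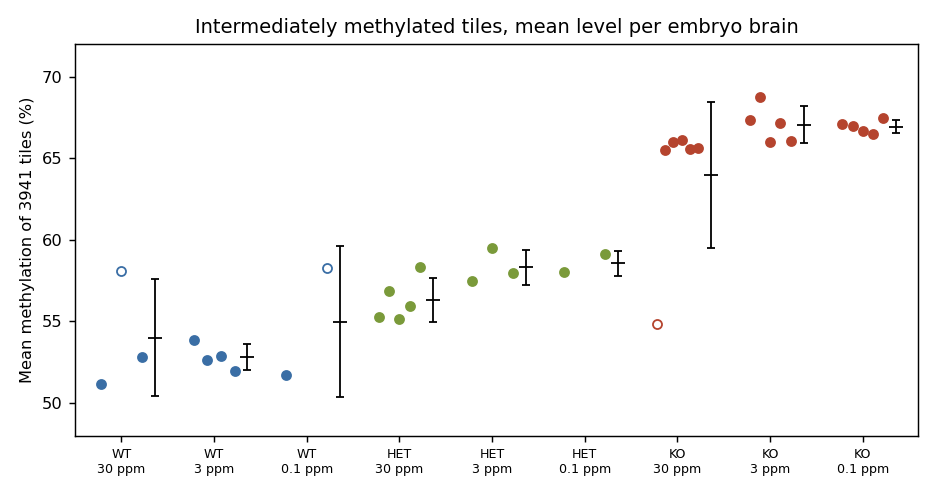
Mean level over 3941 intermediately methylated tiles (%, y axis, from 48 to 72) for each of 35 embryo brains by genotype and diet (x axis), with the mean and SD of each group in black and the 3 libraries in doubt as open circles. The 15 filled KO points lie at 65.5% or above and the 7 filled WT points at 53.9% or below.

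Embryos of a group differed from each other by an amount that depended on the group. The median SD of a tile was 4.33 points in WT 3 ppm, where counting alone gives 3.66, and 5.05 points in KO 3 ppm, where it gives 4.33. The ratio of SD to counting error was highest in the groups with a library in doubt, at 1.61 in KO 30 ppm, 1.52 in WT 30 ppm and 1.36 in WT 0.1 ppm, and 0.949 to 1.22 in the others. The 0.949 is that of HET 0.1 ppm, with 2 embryos. A median SD over few embryos runs low, so the ratios of groups of 2 to 6 embryos are not directly comparable. The median SDs in the groups with a library in doubt were 6.97, 5.66 and 5.85 points, and without that library that of KO 30 ppm was 5.05 and that of WT 30 ppm 3.83. The last 2 values rest on 5 and 2 embryos, and an SD over 2 embryos is not comparable with one over 3. In methylated tiles the SDs of WT 3 ppm and KO 3 ppm were 2.41 and 2.75 points.

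Whether the KO embryos differed from WT was tested on 30 and 0.1 ppm, where no embryo chose the tiles. Reads were fitted per tile with a quasi-binomial model over all 50771 tiles that varied by 2 points or more, 3933 of them intermediate, and a call needed an adjusted p under 0.05 and a difference of group means of 10 points or more. With both diets together, 1851 intermediate tiles rose in KO (47.1%) and 2 fell, where 12.2% of all tiles tested rose and 0.00591% fell. Their median difference was 10.1 points (interquartile range 5.38 to 15.6) against 2.83 over all tiles tested, and it was above 0 in 94.4%. Without the 3 libraries in doubt 2505 rose (63.7%) and 6 fell, against 18.8% and 0.0295% of all tiles, and the median difference was 13.8 points. With only the embryos labelled norm 1968 rose (50.04%) and 4 fell, against 14.2% and 0.0138% of all tiles. Limma on the logit of the tile level called 1514 higher and 1 lower, against 10.6% and 0.00197%.

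On each diet alone the direction was the same but the counts moved with single libraries. On 0.1 ppm 1606 rose (40.8%) and 1 fell, against 12.1% and 0.0118% of all tiles, with a median difference of 11.2 points. On 30 ppm 945 rose (24.0%) and 1 fell, against 5.85% and 0.00591%, with a median of 9.26 points, and 2232 rose and 6 fell without the libraries in doubt, against 16.1% and 0.0276% of all tiles. Leaving out 1 embryo gave 2 without WT 30 ppm replicate 1 (0.00394% of all tiles), 1424 without replicate 2 (9.46%) and 250 without replicate 3 (1.29%). It gave 1863 without KO 30 ppm replicate 1 (12.3%) and 254 to 426 without any other KO embryo (1.43% to 2.51%). On 0.1 ppm 597 rose without WT replicate 1, against 5.11% of all tiles, where the only WT library left is one in doubt and the KO embryos supply the spread. With limma on the logit of the tile level none were called on 30 ppm, while 1358 passed an unadjusted p under 0.05 with 10 points. Limma called 396 on 0.1 ppm, against 4.77% of all tiles.

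KO and HET embryos were compared on all 3 diets, and none of them chose the tiles. On 3 ppm, where no library is in doubt, 1195 tiles rose (30.4%) and 0 fell, against 8.44% and 0.00788% of all tiles tested, with a median difference of 7.89 points (interquartile range 3.31 to 13.3). The same quasi-binomial test at an unadjusted p under 0.05 with 10 points gave 1464 in either direction, and limma called 432 higher and 0 lower, against 4.68% of all tiles higher. On 30 ppm 779 rose and 1 fell, against 5.47% and 0.00591% of all tiles, with a median of 6.94 points. Without KO 30 ppm replicate 1 1551 rose there, against 10.2% of all tiles, and with litter as a block 442 did, against 3.57%. Without HET 30 ppm replicate 4 498 rose, against 3.92%, and without KO 30 ppm replicate 5 510, against 4.01%. On 0.1 ppm 1037 rose and 3 fell, against 7.51% and 0.0256%, with a median of 7.44 points, and 670 rose without HET 0.1 ppm replicate 3, against 5.06%, where 1 HET embryo is left and the KO embryos supply the spread. Limma called 147 on 30 ppm and 192 on 0.1 ppm, against 1.97% and 2.87% of all tiles. The comparisons KO versus WT on 30 and 0.1 ppm and KO versus HET on 3 ppm share no embryo, and 1031 tiles rose in both, which is 55.7% of the tiles of the first and 86.3% of those of the second. Of the tested intermediate tiles 47.1% rose in the first and 30.4% in the second, and the overlap over all tiles tested is not given. The overlap thus does not set intermediate tiles apart from other tiles. Of lowly methylated tiles 51.0% rose in the first and 47.3% in the second. In both, the difference was above 0 for 3361 of the 3933 tiles (85.5%). Taken singly, it was above 0 for 94.4% in the first and 88.9% in the second, and for 84.0% and 73.7% of all tiles. A high share in both thus follows in large part from the high share in each.

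The gain varied with the starting level. Across all tiles with a class, binned by their level in the WT 3 ppm libraries, the median difference of KO from WT on 30 and 0.1 ppm rose from 5.36 points below 10% to 12.4 points from 20% to 30% and 13.2 points from 30% to 40%. It then declined to 12.6, 10.9 and 8.39 points in the next 3 bins, and was 5.51 points from 70% to 80% and 1.14 points at 90% and above. A tile at 90% or above has at most 10 points left to rise. The small differences and few calls of the upper bins are thus in part set by the scale. The share that rose was highest from 30% to 40%, at 59.6%, and was 55.6%, 50.53% and 34.8% in the other 3 bins of the intermediate range. In KO versus HET on 3 ppm the largest median was in the same bin, at 12.3 points, but the largest share that rose, 48.7%, was from 20% to 30%. By class, 51.0% of tested lowly methylated, 24.0% of unmethylated and 2.99% of methylated tiles rose in KO versus WT. In the same way, lowly methylated tiles had the larger share in KO versus HET on 3 ppm, with 47.3%. Without the libraries in doubt the order of these classes turned, with 63.7% of intermediate and 59.7% of lowly methylated tiles higher in KO versus WT, and the bin from 30% to 40% again had the largest median, 17.2 points, and the largest share, 70.8%. Unmethylated tiles enter only where they were covered in all 35 embryos and varied by 2 points over them, KO included. That left 3165 of the 24768 in the class. A tile near 0% in WT can pass this filter because it rises in KO. The 24.0% and the 5.36 points below 10% are therefore not those of unmethylated tiles as a whole.

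**Figure D3:**
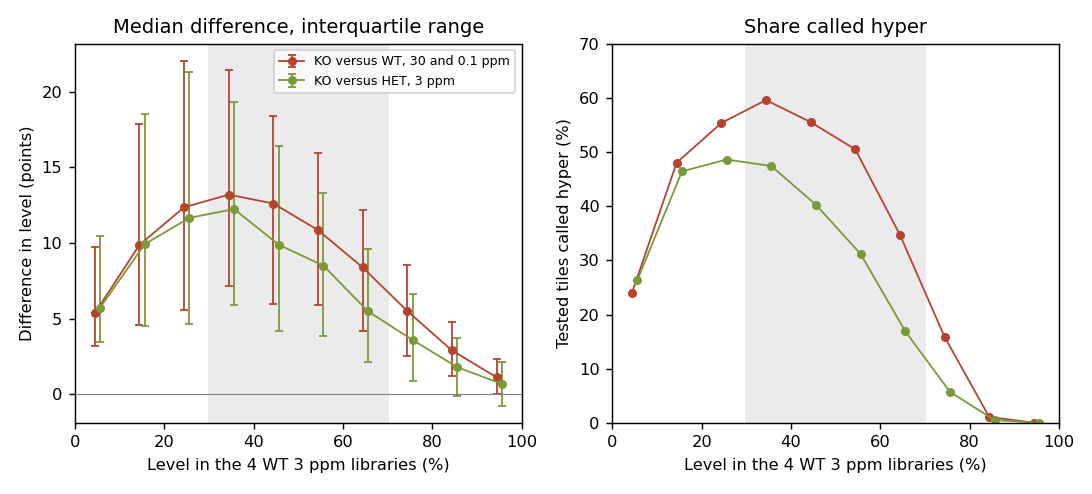
Left, median difference in level (points, y axis) with the interquartile range, and right, the share of tested tiles called hyper (%, y axis), against the level in the 4 WT 3 ppm libraries in bins of 10 points (x axis), for KO versus WT on 30 and 0.1 ppm (red) and KO versus HET on 3 ppm (green). The intermediate range is shaded, and both medians peak in its first bin, at 13.2 and 12.3 points.

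The same held for single CpGs within the intermediate tiles. Those at 20% to 40% in WT 3 ppm had a median of 33.3% in the other WT embryos and 48.8% in KO, with a median difference of 15.2 points, or 19.9 points without the libraries in doubt. The difference was 13.4 points from 40% to 60%, 9.62 points from 60% to 80%, 4.01 points below 20% and 3.55 points at 80% and above. KO was higher at 90.3%, 89.1% and 88.7% of CpGs in the 3 middle bins, and at 73.0% and 75.4% in the outer ones. CpGs near the top of the scale likewise have little room to rise. Reads of all embryos were pooled here, so these are descriptions without a test.

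By position, exons and promoters had larger shares of intermediate tiles that rose than introns and intergenic DNA. In KO versus WT on 30 and 0.1 ppm 470 of 826 exonic tiles (56.9%) and 495 of 947 promoter tiles (52.3%) rose, against 411 of 1007 intronic (40.8%) and 475 of 1153 intergenic tiles (41.197%). Over all tested tiles with a class, the share that rose was 22.5% at promoters, 14.4% in exons, 12.2% in introns and 11.5% between genes, so promoters and not exons led there. Without the libraries in doubt the shares of intermediate tiles were 69.0% for exons, 66.2% for promoters, 60.6% for introns and 60.5% for intergenic tiles. The order was the same for exons and promoters in KO versus HET on 3 ppm, with 40.8% and 37.8%, against 21.0% of introns and 25.1% of intergenic tiles. Of the 100 tested tiles that were themselves island-like 38 rose, with a median difference of 6.82 points, where 21.9% of all tested island-like tiles with a class rose. The shares of intermediate tiles were 49.6% in shores, 53.1% between 2 and 4 kb and 46.8% further away. Over all tested tiles with a class they were 26.4%, 17.7% and 13.7%. All 3 shares of intermediate tiles are near the 47.1% of intermediate tiles as a whole. The tiles that rose had a median level of 51.6% in the rule, 6 CpGs and 137 reads, and those that were not called 59.2%, 5 CpGs and 118 reads. These shares are descriptions, and the part of level and depth in them was not tested.

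The tiles with the largest gains, 1 per gene and called in both comparisons above, came from 1019 that met this outside the Tet1 region. They were picked for the size of the difference, so the sizes are a description. The tile in an intron of Nfix, which encodes a nuclear factor I transcription factor of neural progenitors, is chr8:84736001-84737000 and had 5 CpGs. Its level was 31.5%, 50.4% and 32.8% in WT 30 ppm, 34.54%, 31.0%, 42.5% and 32.1% in WT 3 ppm, and 22.8% and 40.0% in WT 0.1 ppm. In KO it was 81.0%, 88.2%, 77.9%, 84.4% and 78.6% on 3 ppm, 80.0%, 96.9%, 81.9%, 77.9% and 86.6% on 0.1 ppm, and from 40.0% to 87.0% with a median of 83.1% on 30 ppm. Only the KO library in doubt, at 40.0%, fell among the WT values. The difference from WT on 30 and 0.1 ppm was 44.97 points (quasi-binomial test, adjusted p = 4.72e-05), and 55.8 points without the libraries in doubt. HET embryos lay from 40.7% to 55.7%, and the difference of KO from HET on 3 ppm was 32.7 points (adjusted p = 8.91e-07).

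The tile in an exon of Smad6, an inhibitor of BMP signalling, is chr9:63953001-63954000 and had 11 CpGs. It stood at 40.12%, 46.3% and 30.6% in WT 30 ppm, at 42.6% and 43.8% in WT 0.1 ppm, and at 38.9%, 33.8%, 33.1% and 32.6% in WT 3 ppm. KO 3 ppm embryos had 73.9%, 82.9%, 82.4%, 80.2% and 86.7%, and KO 0.1 ppm embryos had 82.0%, 77.9%, 86.1%, 84.7% and 88.7%. On 30 ppm KO ran from 51.2%, the library in doubt, to 86.2%, with a median of 78.7%. KO and WT did not overlap, and the difference on 30 and 0.1 ppm was 37.6 points (adjusted p = 9.97e-06). HET embryos lay from 39.3% to 59.4%.

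The intergenic tile 47.7 kb from the start of Ercc4, a nuclease subunit of DNA repair, is chr16:13061001-13062000 and had 10 CpGs. It had 24.8%, 44.0% and 19.1% in WT 30 ppm, 27.7%, 28.1%, 27.1% and 24.2% in WT 3 ppm, and 20.9% and 52.1% in WT 0.1 ppm. The WT values of 44.0% and 52.1% and the lowest KO value, 33.4%, are those of the 3 libraries in doubt, and the other 15 KO embryos lay from 63.2% to 85.5%. The difference was 38.9 points (adjusted p = 0.00017), and 53.8 points without them.

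The other 7 tiles behaved alike. Without the libraries in doubt, the tile at Fmnl3, an actin-nucleating formin, had 43.1% ± 8.48 in WT (n = 7), 59.3% ± 5.75 in HET (n = 10) and 90.6% ± 2.80 in KO (n = 15). The tile at Dscaml1, a neuronal adhesion molecule, had 34.05% ± 8.12, 53.7% ± 5.38 and 88.0% ± 3.18. The tile at Celf4, an RNA-binding protein of neurons, had 40.49% ± 11.3, 44.0% ± 15.1 and 88.5% ± 6.20. At Flrt1, a leucine-rich repeat membrane protein, the means were 37.6%, 44.3% and 86.2%. At Cnn1, which encodes the actin-binding calponin 1, they were 33.1%, 45.9% and 75.8%. The tiles at Gm9817 and nearest to Gm45241 (152553 bases from its start) had 30.5% and 40.49% in WT and 82.5% and 85.75% in KO. As the tiles had to be called in KO versus HET, a HET mean away from that of KO follows from the choice, and 4 of the 7 WT embryos are those of the rule.

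Only 2 intermediate tiles fell in KO versus WT on 30 and 0.1 ppm. The first covers the processed pseudogene Gm11620, 12.8 kb from the start of Tlk2, a chromatin-assembly kinase, at chr11:105165001-105166000 with 27 CpGs. WT embryos had 64.4%, 65.2% and 66.5% on 30 ppm, 67.02% and 64.6% on 0.1 ppm, and 63.0%, 65.8%, 64.1% and 70.7% on 3 ppm. KO embryos had 59.7%, 52.7%, 50.4%, 63.3% and 48.6% on 3 ppm and 47.9%, 59.8%, 53.8%, 49.2% and 52.7% on 0.1 ppm, and 48.3% to 62.1% on 30 ppm. The difference was -11.9 points (quasi-binomial test, adjusted p = 8.59e-05). In KO versus HET on 3 ppm it was -8.37 points, short of the 10 points a call needs. Reads of a pseudogene can come from its parent gene, so the origin of this level is uncertain. The second, in an intron of the lincRNA Gm4681 (chr14:120139001-120140000), differed by -10.8 points (adjusted p = 0.0118), but without WT 0.1 ppm replicate 1 by -7.66 points, and in KO versus HET on 3 ppm by 4.34 points (adjusted p = 0.386).

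**Figure D4:**
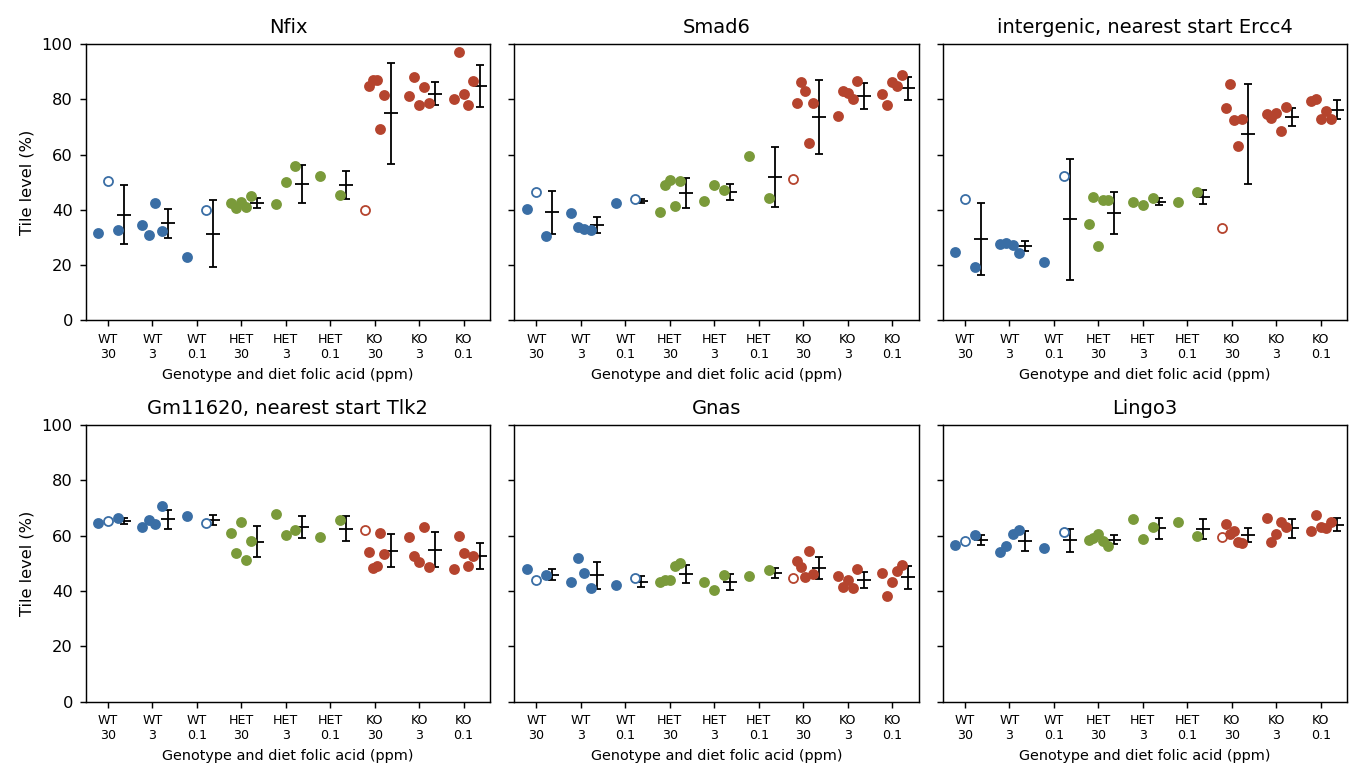
Level (%, y axis) of 6 named tiles in each of 35 embryos by genotype and diet in ppm folic acid (x axis), with group means and SDs in black and the 3 libraries in doubt as open circles. The 3 upper tiles gained methylation in KO, with filled KO points at 63.2% or above, and the Gm11620 tile fell. The Gnas and Lingo3 tiles, picked for their small spread over these embryos, stayed within 38.301% to 54.6% and 54.01% to 67.5%.

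The difference of HET from WT depended on the libraries in doubt. On 30 and 0.1 ppm together 0 intermediate tiles rose and 0 fell by the quasi-binomial test, against 0.0% of all tiles. The median difference was 2.82 points. At an unadjusted p under 0.05 with 10 points 144 of the 3933 tested passed. Some of so many tests pass by chance, and the share over all tiles was not counted. Limma also called 0. Without the 3 libraries in doubt 360 rose (9.15%) and 0 fell, against 1.4% of all tiles that rose, with a median difference of 5.37 points, and without WT 30 ppm replicate 2 alone 87 did, against 0.321%. With litter as a block 5 rose, against 0.0177%. Over the 3941 tiles, and on 30 and 0.1 ppm without the libraries in doubt, the median difference from the 3 WT embryos was 4.90 points for the 7 HET embryos (interquartile range 1.71 to 8.23) and 13.6 points for the 10 KO embryos (7.55 to 20.2), both against the same WT embryos.

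Of the gene lists counted, that of imprinted genes had the smallest median difference. At imprinted genes 1 allele carries methylation set in a parent's germ cells, so the level over both alleles is near the middle in each cell. Of the 41 listed genes 34 had an intermediate tile over the gene or up to 5 kb upstream, 52 tiles in all, and 47 were tested. Of these 5 rose (10.6%) and 0 fell in KO versus WT on 30 and 0.1 ppm, where 47.1% of all tested intermediate tiles rose. The 10.6% is near the 12.2% of all tiles tested that rose, and the 12.4% of all tested tiles at these genes, intermediate or not. The median difference of the 47 was 2.04 points (interquartile range -0.12 to 6.78). It was under 5 points in either direction in 28 (59.6%), against 22.6% of all tested intermediate tiles. Without the libraries in doubt 9 rose (19.1%), where 63.7% of all tested intermediate tiles and 18.8% of all tiles tested did. The median was then 3.22 points and 27 (57.4%) differed by under 5 points, against 16.7% of all tested intermediate tiles. In KO versus HET on 3 ppm 4 of the 47 rose, against 8.44% of all tiles and 30.4% of intermediate tiles, with a median of 3.37 points. All CpGs lay from 20% to 80% in 42 of the 52 (80.8%), against 25.6% of intermediate tiles as a whole. The median SD over the 35 embryos was 6.51 points against 8.34. This SD contains the difference between genotypes and falls with depth. It thus does not show that these tiles varied less between embryos of the same group, which was not tested.

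Tiles at starts of 5 imprinted genes, picked as examples because their level was alike in every genotype, had the following values. At the start of Zrsr1, an imprinted retrogene within Commd1 (chr11:22972001-22973000, 51 CpGs), the level was 46.5% ± 1.63 in the 5 WT embryos outside the rule, 45.28% ± 2.56 in 10 HET and 47.1% ± 2.51 in 16 KO embryos. At Grb10, an adaptor that restrains growth-factor signalling (chr11:12026001-12027000), it was 47.995% ± 3.24, 47.1% ± 3.37 and 48.4% ± 4.84. At Kcnq1ot1, a noncoding RNA that silences its domain (chr7:143295001-143296000), it was 47.2% ± 6.45, 46.8% ± 4.12 and 48.3% ± 5.25. At Peg13 (chr15:72809001-72810000) it was 48.9% ± 2.65, 46.8% ± 3.72 and 49.3% ± 5.73. At Plagl1, a zinc finger transcription factor (chr10:13090001-13091000), it was 42.4% ± 5.88, 43.1% ± 5.66 and 41.02% ± 7.39. The difference of KO from WT on 30 and 0.1 ppm was within 3 points at each of these 5 (from -2.99 to 0.30). That of KO from HET on 3 ppm was 6.47 points at Kcnq1ot1 (adjusted p = 0.0787), and 0.0066 to 1.72 points at the other 4. Adjacent tiles of 4 of these genes differed more. That of Zrsr1 (chr11:22973001-22974000) differed by 6.66 points between KO and WT (adjusted p = 0.272). That of Plagl1 (chr10:13091001-13092000) differed by 5.21 points between KO and WT (adjusted p = 0.0142), below a call. In KO versus HET on 3 ppm that of Grb10 (chr11:12025001-12026000) differed by 7.61 points (adjusted p = 0.0052), below a call, and that of Peg13 (chr15:72810001-72811000) by 12.2 points (adjusted p = 0.0292), a call. In KO versus WT on 30 and 0.1 ppm the tile at the start of Mest differed by -11.7 points (adjusted p = 0.359).

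The Gnas gene, which encodes the stimulatory G protein alpha subunit, had 11 intermediate tiles, the most of any listed gene, and 0 of the 10 tested rose. In the coding exon tile shown above (chr2:174299001-174300000, 32 CpGs) WT embryos had 47.9%, 44.1% and 45.7% on 30 ppm and 42.002% and 44.8% on 0.1 ppm, and KO embryos had 46.4%, 38.301%, 43.3%, 47.1% and 49.3% on 0.1 ppm and 44.5% to 54.6% with a median of 47.4% on 30 ppm. The groups overlapped, and the difference was 1.93 points (adjusted p = 0.267). The tile is among those picked for the smallest SD over all 35 embryos, so a small difference follows from the choice. Of the other tested Gnas tiles, a pair passed the test with less than 10 points, chr2:174328001-174329000 with 9.94 points (adjusted p = 0.0122) and chr2:174298001-174299000 with 5.12 points (adjusted p = 0.00841). In the exon tile on 3 ppm KO embryos had 45.4%, 41.6%, 44.0%, 40.98% and 48.1%. Kcnq1 had 5 tiles, of which 2 intronic ones rose, by 10.1 and 12.6 points. Trappc9 had 4 tiles, of which 1 in an intron rose, by 12.2 points. The other 2 of the 5 were an exonic tile of Zdbf2, with 13.6 points, and a tile at Slc38a4 (chr15:97050001-97051000), with 18.0 points (adjusted p = 0.000287). A second tile at Slc38a4 (chr15:97055001-97056000) had 43.3% in the 5 WT embryos and 43.8% in the KO embryos of all diets, with a difference of 0.10 points on 30 and 0.1 ppm.

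**Figure D5:**
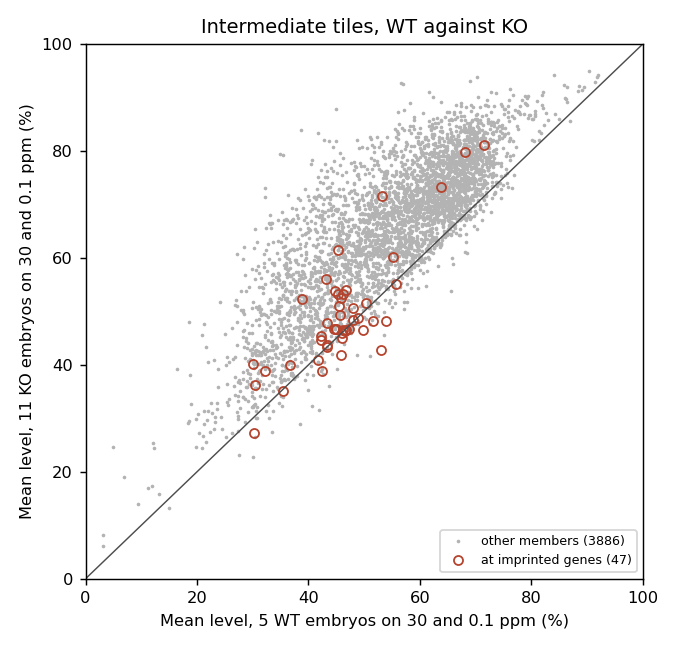
Mean level of each of 3933 tested intermediate tiles in 11 KO embryos (%, y axis) against the mean in 5 WT embryos (%, x axis), both on 30 and 0.1 ppm, with the line of equal levels. Grey points are 3886 other tiles, most of them above the line, and red circles are 47 tiles at imprinted genes, of which 28 differ by under 5 points. The libraries in doubt are included.

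The other gene lists were counted in the same way for KO versus WT on 30 and 0.1 ppm, and no tile of any of them fell. As 47.1% of all tested intermediate tiles rose, and the lists hold few tiles, a share near that is no result about a list. The lists include 6 tests of tiles within 10 Mb of Tet1, all called, namely 3 at Unc5b, 1 nearest to Slc29a3, and the tile at Tet1 itself in both the pluripotency and the DNA methylation list. At axon guidance genes 12 of 32 tested tiles rose, or 9 of 29 outside that region, with 3 of 3 at the netrin receptor Unc5b within it, 1 of 3 at the ephrin receptor Ephb2 and 0 of 2 at the guidance ligand Slit1. At brain patterning genes 5 of 8 rose, among them those at the transcription factors Pax7 (24.0 points) and Gli1 (20.9 points), while the tested tile at Gli2 differed by 0.39 points. At genes of neural tube closure 9 of 14 rose, with a median difference of 14.2 points, including 2 of 2 at Grhl3, a transcription factor of the surface ectoderm, 2 of 2 at Alx4, a homeobox factor, and 2 of 3 at Ptk7, a planar cell polarity receptor. At Wnt genes 9 of 22 rose, 2 of 4 at Apc2, a beta-catenin regulator, 1 of 3 at the ligand Wnt9b and 0 of 2 at the effector Lef1. At proneural bHLH genes 3 of 6 rose, 2 of 5 at Tcf4 and the tile at Olig1 by 26.7 points. No tile at a Hox gene was intermediate.

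Genes of other lists gave similar counts. At pluripotency genes 5 of 8 rose (4 of 7 without the tile at Tet1), 2 of 2 at the nuclear receptor Esrrb and the tile at Dppa3 by 19.4 points, and the tile at Gdf3 differed by -6.44 points. At germline genes 8 of 18 rose, with 0 of 2 at Boll, 1 of 2 at Meioc and 1 of 2 at the cohesin subunit gene Smc1b. At genes of DNA methylation 6 of 11 rose (5 of 10 without the tile at Tet1), with 2 of 2 at Trim28, a co-repressor that guards imprints, 1 of 1 at Zbtb4, a reader of methylated DNA, and 0 of 2 at Gadd45g. At folate and one-carbon genes 3 of 5 rose, among them the tile at Chdh, a choline dehydrogenase, by 15.2 points, while that at Dmgdh differed by 4.88 points. At potassium channels 12 of 25 and at solute carriers 25 of 48 rose (24 of 47 without that nearest to Slc29a3), 2 of 6 at the zinc transporter gene Slc39a11 and the only tested tile at Slc22a7 by 31.2 points. Over all tiles tested at these lists, intermediate or not, 3.85% (Hox) to 22.4% (proneural bHLH) rose. Without the libraries in doubt, the share of the intermediate tiles at these lists that rose ran from 2 of 5 at folate and one-carbon genes and 62.5% at solute carriers to 76.0% at potassium channels and 5 of 6 at proneural bHLH genes, where 63.7% of all tested intermediate tiles rose.

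Tiles that varied least over the 35 embryos were drawn from 536 with 10 or more CpGs and 100 or more reads. Besides Zrsr1, Gnas and Lingo3 they were at Rbbp8nl, Drg1, Spsb3, Gipc3 and the gamma protocadherin cluster (Gm37013). A further pair lay outside genes, nearest to the starts of Gm10479 (113913 bases away) and Sp1 (5143 bases away). The SDs were 2.58 to 3.47 points. On the CpGs covered in all embryos 3 of these tiles lay outside the range of the rule on average in WT. They were those at Spsb3 (80.2%) and Drg1 (70.7%) and that nearest to Sp1 (25.9%). The Drg1 tile, at the start of Sfi1, had 122 reads per CpG and that nearest to Gm10479, over a pseudogene, 47.7, where the median of tested intermediate tiles was 22.4 and the 99th percentile 37.3. The Rbbp8nl tile had 40.0. Near-identical copies may share such reads, so these levels are uncertain. The tile in a coding exon of Lingo3, a leucine-rich repeat membrane protein (chr10:80834001-80835000, 38 CpGs), differed by 3.73 points between KO and WT (adjusted p = 0.0306), below the 10 points for a call. Of the tiles that varied most among the 9 WT embryos, 1 was nearest to Vav3, 88653 bases from its start. It had 20% in WT 0.1 ppm replicate 1, from 25 reads, and 59.7% to 88.6% in the other WT embryos. The others were at Vps13c and Nemp1, and in intergenic DNA nearest to Gm20554 (261564 bases from its start) and Igfbp5 (3117 bases). Their SDs over WT were 16.3 to 18.2 points. The place of the tile nearest to Gm20554 rests on WT 0.1 ppm replicate 2, a library in doubt, at 85% from 40 reads, and its SD was 7.08 points over the 7 WT embryos not in doubt. Without these libraries the SDs of the others were 13.2 to 22.4 points. Of these 5 only the tile nearest to Gm20554 rose in KO versus WT, by 20.7 points (adjusted p = 0.00275).

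Folic acid in the diet was compared within genotypes on the same tiles. The dams received the diet, and each litter, as read from the titles, occurs on a single diet. Embryos of the same litter are thus not independent units for diet, though the tests count them as such. By the quasi-binomial test 0 intermediate tiles rose and 0 fell between 30 and 3 ppm in KO, between 0.1 and 3 ppm in KO, between 30 and 3 ppm in HET, and between 30 and 0.1 ppm in WT. Of all tiles 0.0% rose in KO and WT and 0.00591% in HET. Unadjusted, 107, 92, 197 and 137 of the 3933 intermediate tiles passed p under 0.05 with 10 points, and limma called 0 in each. Among so many tests a number pass that p by chance, and the share over all tiles was not counted. These counts are therefore not read as an effect of diet. The same limit holds for the other unadjusted counts, above and below. The median differences were -3.04, -0.14, -1.96 and -0.89 points. Without the library in doubt the first was -1.32 points. Without both WT libraries in doubt 24 intermediate tiles rose and 24 fell between 30 and 0.1 ppm in WT, against 0.15% and 0.1% of all tiles, with 1 embryo left on 0.1 ppm. Leaving out 1 embryo moved the median of that comparison between -4.07 (without WT 0.1 ppm replicate 1) and 2.23 points (without replicate 2). The effect of KO against WT differed between 30 and 0.1 ppm in 0 tiles, and that against HET between 30 and 3 ppm in 0 tiles, with 0.0% of all tiles called, 132 and 149 past an unadjusted p under 0.05 with 10 points, and 0 called by limma. With 2 to 6 embryos a group, a p that misses the threshold does not show that the diets act alike.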

How the data were processed

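Per the labels and the methods of the study, oxidative bisulfite libraries cut with MspI and TaqI were trimmed with Trim Galore 0.6.10, aligned to mm10 and called with Bismark 0.24.1 and deduplicated with UMI-tools. The deposited tables give for each CpG the methylation as a fraction and its coverage as a count of reads. The authors' lists of differential regions hold their own comparisons and were not used. Every position covered 5 times on autosomes (3204296) held CG in GRCm38.p6. Methylated reads were the fraction times the coverage, which was whole on every line within 1e-06 of a read.

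Reads were summed per tile over CpGs covered 5 or more times in all 35 embryos, with at least 3 such CpGs and an SD over embryos of at least 2 points. Tiles were tested with a quasi-binomial logistic model with moderated dispersion of at least 1, diet as covariate where diets were pooled, and Benjamini-Hochberg adjustment over 50771 tiles (Python 3.11.15, numpy 2.4.6, scipy 1.17.1), and with limma 3.58.1 in R 4.3.3 as an alternative. With 23190717 to 197322320 calls a library, a tile of median depth carried a counting error of 3.66 to 4.35 points. Intervals and errors of counting do not cover amplification. Embryos are separate animals. The number after TP and before the point in their titles was taken as the litter, which the labels do not state. It pairs the embryos in part. Deviations from group means of littermates in different groups correlated by 0.06 (median of 35 pairs, -0.01 to 0.28), against -0.02 for other pairs.

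Named tiles were, 1 per gene and outside 10 Mb either side of Tet1, the 10 largest gains, up to 5 losses, 10 steadiest, 5 most variable in WT, and called tiles of diet and HET comparisons, of which there were none. For gene lists up to 3 genes with most tiles were named, and others such as Olig1, Slc22a7, Dppa3, Gdf3 and Mest, and the imprinted examples, were chosen after their values were seen. Genes are from GENCODE vM21. The tiles and lists were chosen with earlier results of these data known. The alternatives are given in the closing section.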

Additional observations from a re-analysis of the deposited data

Results flagged for a closer look

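Of 140 groups of 4 to 6 embryos, those of the mean level and of each named tile, 11 had an embryo far from the others, where chance gives about 1 in 20. Of these, 5 are the library labelled KO 30 ppm replicate 1: its mean level over the tiles was 54.84% (the nearest other embryo 65.5%), and its level was 63.3% at Fmnl3 (82.9%), 48.2% at Dscaml1 (82.4%), 50.8% at Celf4 (78.5%) and 44.2% at Flrt1 (78.2%). Its Tet1 CpG stood at 45%, within the range of HET libraries. The tile nearest to Gm45241 had 44.7% in HET 30 ppm replicate 3 (56.3%). At the tile nearest to Sp1, KO 0.1 ppm replicate 4 had 29.7% (25.3%) and WT 3 ppm replicate 1, one of the libraries that chose the tiles, 30.0% (26.1%). At Commd1, KO 30 ppm replicate 2 had 51.8% (46.7%). At Drg1, KO 3 ppm replicate 5 had 67.7% (74.1%), and at Nemp1 KO 3 ppm replicate 3 had 65.0% (49.2%).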

How the results depend on the processing

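The direction of the genotype differences held under every alternative run, and the counts moved with the statistic, with the libraries in doubt and, on 30 ppm, with single WT embryos that are not in doubt: 945 tiles rose in KO versus WT there, 2 without WT 30 ppm replicate 1 and 250 without replicate 3. Given as the share of tested tiles that rose, for KO versus WT on 30 and 0.1 ppm together, on 30 and on 0.1 ppm, and KO versus HET on 3, 30 and 0.1 ppm, a minimum difference of 20 points gave 12.7%, 9.23%, 17.8%, 8.90%, 3.84% and 9.10%, by construction fewer. Limma on the logit gave 0%, 10.1%, 10.98%, 3.74% and 4.88% for the last 5 of these (0, 396, 432, 147 and 192 tiles, against 945, 1606, 1195, 779 and 1037), and 38.5% for the first (1514 against 1851), and the cause was not tested. For KO versus WT on 30 ppm a dispersion shared by all 9 groups gave 39.4% and tiles with 10 or more CpGs in the rule 36.197%. Without the 3 libraries in doubt the share was 56.8% for KO versus WT on 30 ppm, 39.4% for KO versus HET on 30 ppm, 9.15% for HET versus WT and 0.61% (24 tiles up and 24 down, against 0.15% and 0.1% of all tiles) for 30 versus 0.1 ppm in WT, where the lone 0.1 ppm embryo is assumed to vary like the others. With litter as replicate block it was 11.2% for KO versus HET on 30 ppm and 0.13% for HET versus WT, and the block moved no other share by over 1.5 times. The median correlation of littermates in different groups was 0.06, from -0.01 to 0.28.

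Leaving out each embryo in turn gave 35.9% to 53.9% for KO versus WT on both diets, 0.051% to 47.4% on 30 ppm and 15.2% to 45.31% on 0.1 ppm, 24.2% to 30.9%, 12.7% to 39.4% and 17.0% to 26.3% for KO versus HET on 3, 30 and 0.1 ppm, and 0% to 2.21% for HET versus WT. The other comparisons stayed at 0%. With bounds of 10% and 90% the share of tiles with all CpGs in between was 56.8%, and that of mixed tiles 11.8%. With only embryos labelled norm, an alternative chosen after seeing the data, the share that rose was 50.04% for KO versus WT on both diets and 28.7% for KO versus HET on 3 ppm. In all, 236 of the values of main results stayed within 1.5 times or 1 SD and 38 moved further. The 236 include settings of the diet comparisons in which 0% stayed 0%, so they say little of how stable the genotype shares are. The other values were the calls of named tiles and, with each CpG weighted equally, SDs over the embryos. Of these, 507 kept their call or stayed near their SD and 6 lost a call. The calls lost were Gm11620 only at 20 points, and Gm4681 at 20 points, with limma and without any 1 of 3 embryos. With 2 WT embryos on 0.1 ppm, the spread there is little known.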
